A study of Capra hircus with 12 samples.

Results

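The miR-125 family was represented in these libraries by 4 mature miRNAs out of 376 listed. By their names these are the arms chi-miR-125a-5p and chi-miR-125a-3p of miR-125a and chi-miR-125b-5p and chi-miR-125b-3p of miR-125b. An arm pair of 1 name is called a hairpin below, whether 1 gene or several made it. The prefix stands for Capra hircus and is left out below. The rule that picked them uses the name and no measured value, although it was set with earlier results of these data known. All 4 were among the 300 miRNAs left for testing by a filter on low counts. The samples were 12 small RNA libraries of secondary hair follicles (SHFs), the small follicles that grow cashmere, dissected under a microscope from the skin of Liaoning cashmere goats aged 1.5 years. At each of 6 months, 1 library came from females and 1 from males. February and March stood for telogen, the resting phase (4 libraries), May for early anagen, the start of growth (2 libraries), September for mid-anagen (2 libraries), and November and December for catagen, the regressing phase (4 libraries). No treatment or genetic change is named for any group. According to the study's methods, several animals of each sex were sampled at every time point. How they were combined into libraries is not stated, and the p-values below measure the spread between these libraries only.

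A miRNA hairpin is cut into a duplex whose 5p and 3p strands can each be loaded into an Argonaute protein, where one strand usually persists and the other is largely degraded. The ratio of both arms within a library is therefore a measure that does not depend on how libraries are scaled against each other. The miR-125 family is the vertebrate counterpart of lin-4, the founding miRNA of nematode developmental timing, and in mouse skin miR-125b is known as a miRNA of hair follicle stem cells that holds back their differentiation. Its genes lie in conserved clusters with genes of the let-7 family and of the miR-99 and miR-100 family.

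The libraries held between 3135292 and 5788032 counts, with a median of 4469051. Levels are given as TPM, here the count scaled to the same library total throughout, without a correction for composition, and intervals cover counting error only because the reads carry no molecular identifiers. miRNAs typical of epidermal cells (miR-200 family, miR-141, miR-429 and miR-203) summed to a TPM of 56735 to 96687 over the libraries, and those of mesenchymal cells (miR-143, miR-145, miR-199 and miR-214) to 118318 to 148888, while the epidermal miR-205 is not among the miRNAs listed. Of the other lists, the erythrocyte miRNAs miR-144 and miR-451 summed to 5.41 to 115.4, those of leukocytes (miR-150, miR-155 and miR-223) to 393.3 to 664.3, those of muscle to 1902 to 3614, and miR-126 of endothelium to 8819 to 12699. In such bulk libraries, fewer cells of a type and less RNA per cell cannot be told apart.

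Both 5p arms were abundant and both peaked in May, whereas the 3p arms were lowest or nearly so in May and stood high from September to December. By mean TPM over the 12 libraries, miR-125a-5p ranked at place 61 of the 376 miRNAs with 881.2, miR-125b-5p at place 74 with 589.1, miR-125b-3p at place 101 with 161.8 and miR-125a-3p at place 266 with 5.65. This order of the 4 arms held in each of the 12 libraries. Capture in library preparation differs between sequences, so the order is one of counts.

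The level of miR-125a-5p, the more abundant of both presumed guide strands, was a TPM of 679.2 (female) and 904.0 (male) in February, 841.2 and 907.2 in March, and 1605 and 1467 in May. It was 726.3 and 740.9 in September, 707.8 and 726.8 in November, and 690.2 and 578.6 in December. Both May libraries lay above all 10 others, and no other month stood apart. In TPM, the May libraries lay above all of telogen for 26% of tested miRNAs, above September for 60% and above all of catagen for 53.3%. The means were 1536 ± 98.1 in May (SD, n = 2), 832.9 ± 107 in telogen (n = 4), 734 ± 10.3 in September (n = 2) and 676 ± 66.5 in catagen (n = 4), and the ranges of neighbours in the order below May overlapped.

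miR-125b-5p followed the same course at a lower level. Its TPM was 437.8 (female) and 545.4 (male) in February, 509.0 and 713.7 in March, 1045 and 943.1 in May, 476.0 and 489.2 in September, 488.5 and 473.8 in November, and 499.0 and 448.8 in December. Again both May libraries were above all others, and the male March library came next. The means were 994 ± 71.8 for May, 551.5 ± 117 for telogen, 483 ± 9.32 for September and 477.5 ± 21.8 for catagen, the last 3 with overlapping ranges.

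miR-125b-3p, the less abundant strand of its hairpin, had a TPM of 98.0 (female) and 135.8 (male) in February, 90.7 and 190.4 in March, and 126.7 and 105.9 in May. It had 250.5 and 182.9 in September, 195.3 and 196.3 in November, and 180.9 and 188.6 in December. The libraries from September to December lay above those of February to May with 1 exception, the male March library, which lay among them. The means were 217 ± 47.8 in September, 190 ± 7.12 in catagen, 129 ± 45.6 in telogen and 116 ± 14.7 in May, so that September and catagen overlapped and so did telogen and May.

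miR-125a-3p was close to the lower limit of the measurement, with 14 to 37 counts per library. Its TPM was 3.97 (female) and 4.51 (male) in February, 4.12 and 7.26 in March, 4.59 and 4.47 in May, 6.66 and 6.06 in September, 6.66 and 5.67 in November, and 8.22 and 5.63 in December. The 14 counts of the male May library gave a 95% Wilson interval of 2.66 to 7.50, and the 37 counts of the female December library one of 5.97 to 11.3. Single libraries of this arm thus overlapped widely in their counting error. As with the other 3p arm, the male March library was the highest of telogen. miR-125a-3p exceeded the 5 CPM of the filter in 7 libraries only, those of September to December and the male March one, and in neither May library. It thus entered the tests through the groups where it was high, so calls of this arm and of its arm ratio are given as values, and members called are counted over the other 3, which exceeded 5 CPM in all 12 libraries.

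**Figure D1:**
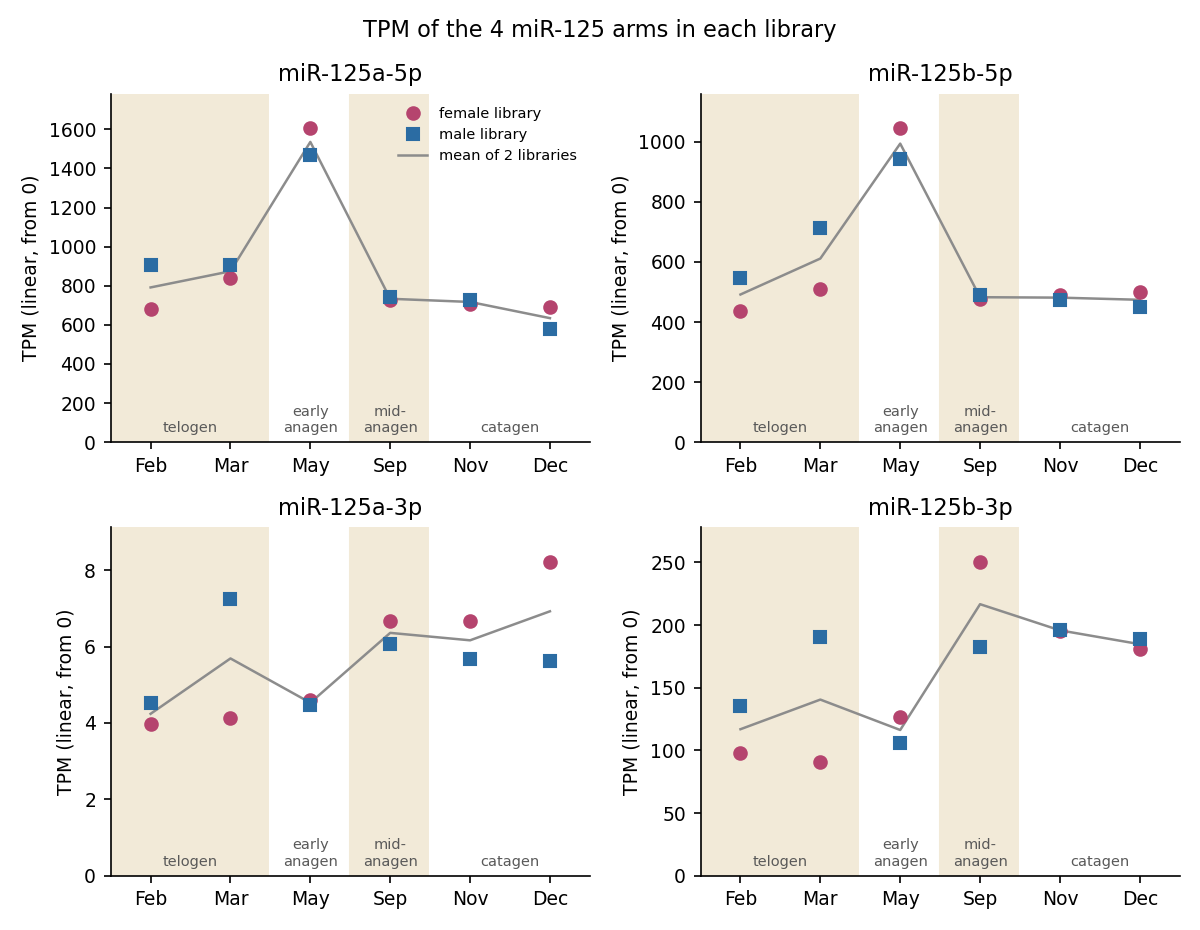
TPM of the 4 miR-125 arms (y axis, linear and starting at 0) against the month (x axis), with a circle for the female and a square for the male library and a line through their mean. Both 5p arms peak in May, at 1605 and 1467 for miR-125a-5p and 1045 and 943.1 for miR-125b-5p, while both 3p arms are higher from September to December than in May.

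Phases were compared by the quasi-likelihood test of edgeR on TMM-scaled libraries. TMM corrects for the composition of a library. A miRNA was called when its Benjamini-Hochberg adjusted p over the 300 tested miRNAs was under 0.05 and its change at least 2-fold. From telogen to May both 5p arms were higher, miR-125a-5p by 0.69 on the log2 scale (SE 0.14, adjusted p = 0.022) and miR-125b-5p by 0.66 (SE 0.14, adjusted p = 0.022). Neither reached the 2-fold minimum, so 0 of the 3 members counted were called, where 2.33% of tested miRNAs were called in either direction. By the adjusted p alone the higher 5p arms were 2 of 3 against 2.33% of all tested miRNAs. The 3p arms had log2 differences of −0.30 and −0.32 that did not pass (adjusted p = 0.518 and 0.396). For both 5p arms alike, the adjusted p rose to 0.0541 without the female February library, 0.0573 without the male February library, 0.0615 without the female May library and 0.200 without the male May library. It was 0.103 for both when only telogen and May entered the fit.

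From May to September the arms of each hairpin went in opposite directions. miR-125b-3p rose by 1.43 (SE 0.27, adjusted p = 0.00241) and miR-125a-3p by 1.01 (SE 0.33, adjusted p = 0.03), and both were called. Over the members counted this was 1 of 3, where 9.67% of tested miRNAs were called higher. miR-125a-5p fell by 0.54 (SE 0.16, adjusted p = 0.0233) and miR-125b-5p fell by 0.52 (SE 0.16, adjusted p = 0.0263), both short of the 2-fold minimum. Passing the adjusted p in one direction or the other was common in this transition, at 34% of tested miRNAs. In TPM, the May and September libraries did not overlap for any of the 4 members, which held for 77% of all tested miRNAs.

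The rise of miR-125b-3p was called whichever library was left out, with 1.13 to 1.68 on the log2 scale. The call of miR-125a-3p, which rests on a change just past 2-fold, was lost in 10 of 12 such fits, with values from 0.81 to 1.13, and was kept without the female February or the male November library. Its adjusted p rose to 0.190 without the female May, 0.139 without the male May, 0.140 without the female September and 0.0592 without the male September library. For the 5p arms the adjusted p passed 0.05 without the male May library (0.0517 for both), the female September library (0.0874 and 0.0923) or the male September library (0.106 and 0.113).

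No member was called from September to catagen, where 0% of tested miRNAs were called by edgeR and 23 had an unadjusted p under 0.05. The log2 differences there were −0.08 for miR-125a-5p, 0.02 for miR-125b-5p, 0.06 for miR-125a-3p and −0.16 for miR-125b-3p (adjusted p of 0.914 for the last). The levels of both 3p arms were thus not distinguished between September and catagen by this test. The SE was 0.27 for miR-125a-3p and 0.23 for miR-125b-3p, which leaves room for changes of that size. With 1 library left out miR-125b-3p ranged from −0.41 to 0.15.

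From catagen to telogen both 3p arms were lower. miR-125b-3p fell by 0.95 (SE 0.19, adjusted p = 0.00286) and miR-125a-3p fell by 0.77 (SE 0.23, adjusted p = 0.0194). Neither reached the 2-fold minimum, so 0 of the 3 members counted were called where 10.7% of tested miRNAs were called in either direction, and by the adjusted p alone 1 of 3 was lower against 21% of all. With library totals in place of TMM neither 3p arm passed, with −0.57 for miR-125b-3p (adjusted p = 0.0558) and −0.41 for miR-125a-3p (adjusted p = 0.215). In the same step 1 of 2 erythrocyte and 1 of 4 leukocyte miRNAs were called higher, where 6.33% of tested miRNAs were. Of the muscle, endothelial, epidermal and mesenchymal arms 0 were called. The summed erythrocyte TPM was 5.41 to 26.4 in catagen and 27.9 to 115.4 in telogen. Telogen lay above catagen without overlap in TPM for 24% of tested miRNAs. miR-125b-3p passed the fold minimum without the male March library (−1.08) or without the female December library (−1.02). The adjusted p of miR-125a-3p rose to 0.0521 without the female November library. The 5p arms had log2 differences of −0.07 and −0.17 (adjusted p = 0.656 and 0.256).

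From May to catagen the pattern of May to September recurred, with miR-125b-3p up by 1.27 (SE 0.25, adjusted p = 0.00198) and miR-125a-3p up by 1.08 (SE 0.29, adjusted p = 0.0125). Both were called, 1 of the 3 members counted, where 9% of tested miRNAs were called higher. In the same comparison miR-125a-5p fell by 0.62 (SE 0.14, adjusted p = 0.00433) and miR-125b-5p fell by 0.50 (SE 0.14, adjusted p = 0.0133). Both comparisons share the May libraries and are not independent. The call of miR-125a-3p was lost without the female March (0.99), male March (0.96), female May (0.91), male May (1.03, adjusted p = 0.0923) or female December library (0.996).

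From telogen to September, 1 member was called, miR-125b-3p with a log2 change of 1.115 (SE 0.22, adjusted p = 0.0043), where 4.67% of tested miRNAs were called higher. That call was lost without the female March library (0.996) and without the female September library (0.81, adjusted p = 0.116). miR-125a-3p had 0.71 (adjusted p = 0.0677, and 0.0389 without the male March library), and both 5p arms had 0.15 and did not pass. After TMM scaling, September follicles therefore differed from telogen follicles in the 3p arm of miR-125b, while the 5p levels were not distinguished by this test.

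The members called depended on how the libraries were scaled. When library totals replaced TMM, the median change of all 300 tested miRNAs from May to September moved from 0.07 to −0.46, and 11.2% of the calls in that transition were higher instead of 52.7%. Both 5p arms were then called lower, miR-125a-5p by −1.07 (adjusted p = 0.00105) and miR-125b-5p by −1.04 (adjusted p = 0.00217). The 3p arms fell short of a call, with 0.90 for miR-125b-3p (adjusted p = 0.0358) and 0.49 for miR-125a-3p (adjusted p = 0.326). From May to catagen likewise, the members called changed: miR-125a-5p at −1.18 (adjusted p = 0.000183) and miR-125b-5p at −1.06 (adjusted p = 0.000569) were called lower, and miR-125b-3p at 0.71 (adjusted p = 0.0499) and miR-125a-3p at 0.53 (adjusted p = 0.206) were not called. Over the alternatives that kept all libraries of the groups compared, the adjusted p from May to September ranged from 0.00105 to 0.0245 for miR-125a-5p, 0.000627 to 0.0307 for miR-125b-5p, 6.91e-06 to 0.0358 for miR-125b-3p and 0.0285 to 0.326 for miR-125a-3p, and with 1 library left out it reached 0.106, 0.113, 0.0367 and 0.190 in this order. Scaling also turned the sign of the 5p arms from catagen to telogen, to 0.30 and 0.21 with library totals, without passing the adjusted p.

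**Figure D2:**
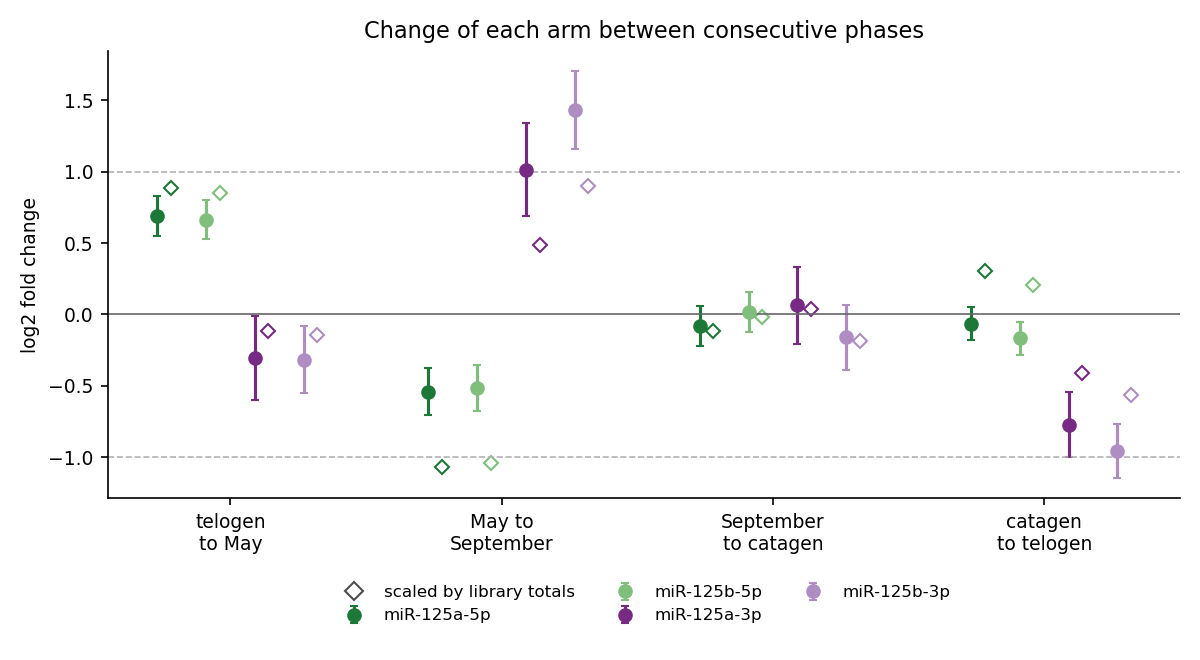
Log2 fold change of each arm (y axis) between consecutive phases (x axis). Filled circles with bars are edgeR estimates after TMM scaling with 1 SE, open diamonds are estimates with library totals, and dashed lines mark a 2-fold change. From May to September the 5p arms lie below 0 and the 3p arms above 0 under both scalings.

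The arm ratio, which needs no scaling, was highest in May in both hairpins. That of miR-125a is given as values only, since its 3p arm passed the filter through the groups where it was high. For miR-125b, the count of the 5p arm was 4.47 (female) and 4.01 (male) times that of the 3p arm in February, 5.61 and 3.75 times in March, 8.25 and 8.91 times in May, 1.90 and 2.67 times in September, 2.50 and 2.41 times in November, and 2.76 and 2.38 times in December. The means were 8.58 ± 0.467 in May (n = 2), 4.46 ± 0.822 in telogen (n = 4), 2.29 ± 0.547 in September (n = 2) and 2.51 ± 0.171 in catagen (n = 4). May lay above telogen and telogen above all libraries of September to December, without overlap, while September and catagen overlapped. Such a separation was seen in 23.2% of hairpins for May above telogen, in 37.8% for telogen above September and in 22% for telogen above catagen. If several genes make miR-125b in goats, this ratio sums over them, and their parts were not told apart.

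Expressed as a share of the miR-125b counts, the 5p arm made up 89.2% in the female May library (95% Wilson interval 88.3 to 90.0) and 89.9% in the male one (88.8 to 90.9). In September it made up 65.5% (64.0 to 67.0) and 72.8% (71.3 to 74.2). In telogen it lay between 78.9% and 84.9%, and in catagen between 70.4% and 73.4%. The 3p arm had its largest share in the female September library, with 1353 counts of miR-125b-3p beside 2571 of miR-125b-5p.

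For miR-125a, whose hairpin was far more one-sided, the 5p count was 171 (female) and 201 (male) times the 3p count in February, 204.0 times in the female March library and 3750 to 30 counts in the male one, 349 and 328 times in May, 109.0 and 122 times in September, 106 and 128 times in November, and 83.9 and 103 times in December. The 5p arm made up 98.8% to 99.7% of the counts in each library. May again stood above all other months, and May libraries lay above those of September in 45.1% of hairpins and above those of catagen in 36.6%. The male March library lay within the range of catagen, so telogen and catagen overlapped.

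**Figure D3:**
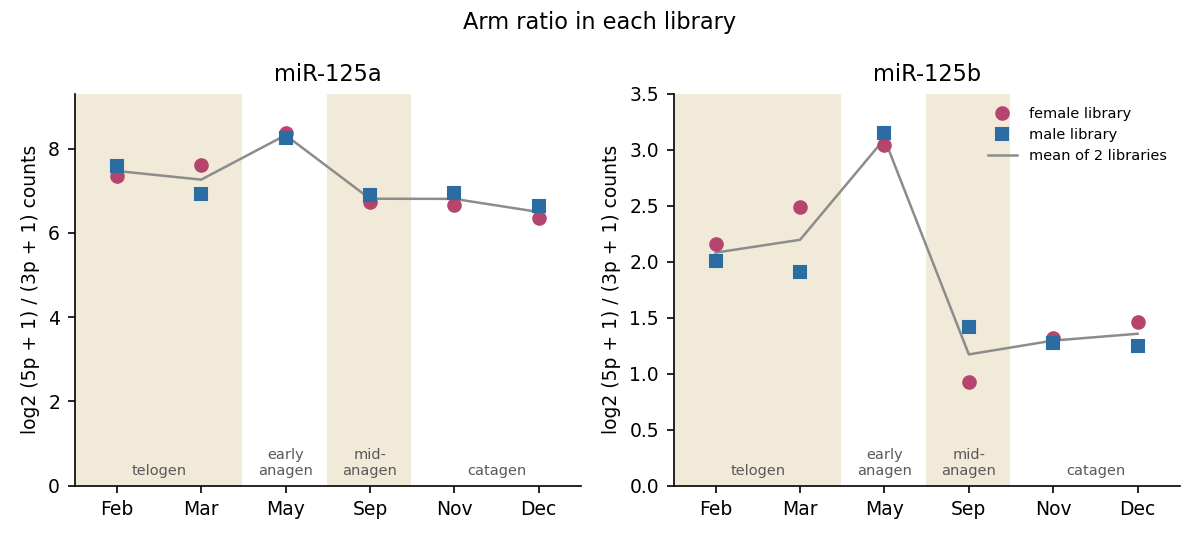
Arm ratio of miR-125a (left) and miR-125b (right) as log2 of the 5p count plus 1 over the 3p count plus 1 (y axis, starting at 0, with a different range in each panel) by month (x axis), with a circle for the female and a square for the male library and a line through their mean. Both hairpins peak in May, at 8.38 and 8.26 for miR-125a and 3.04 and 3.15 for miR-125b, and are lower from September to December.

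Arm ratios were tested with limma on these log2 ratios over the 82 hairpins with both arms tested, and called when the adjusted p was under 0.05. From telogen to May the ratio rose by 0.95 for miR-125a (SE 0.27, adjusted p = 0.0271) and by 0.96 for miR-125b (SE 0.26, adjusted p = 0.0232), where 8.54% of hairpins were called higher. Both calls were lost without the female February library (adjusted p = 0.0597 and 0.0507), the female May library (0.160 for both) or the male May library (0.180 for both), and that of miR-125a also without the male March library (0.0529). The values in these fits stayed between 0.80 and 1.07 for both hairpins. With 2 libraries in May, leaving out 1 leaves the remaining one assumed to vary like the other groups.

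From May to September the ratio fell by 1.51 for miR-125a (SE 0.31, adjusted p = 0.000557) and by 1.92 for miR-125b (SE 0.30, adjusted p = 6.49e-05). Such calls were frequent, at 28% of hairpins lower and 40.2% in either direction, so that being called did not set the family apart. Of the 82 hairpins, 6 fell by more than miR-125b and 12 by more than miR-125a. The median change of all hairpins was −0.27. Whichever library was left out, the change of miR-125b lay between −1.68 and −2.17. That of miR-125a, given as values only, lay between −1.43 and −1.59.

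**Figure D4:**
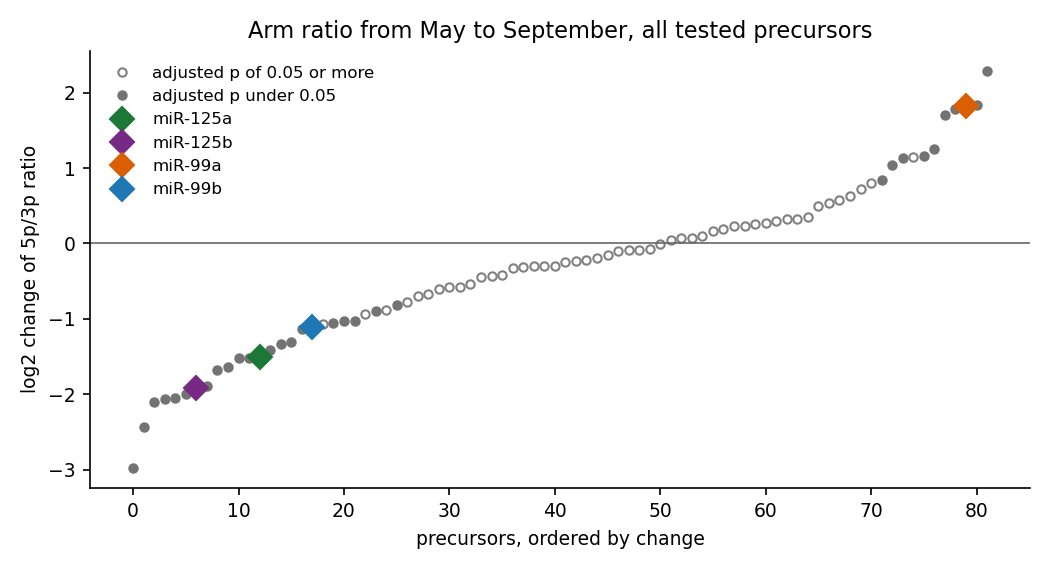
Log2 change of the 5p to 3p ratio from May to September (y axis) for the 82 tested hairpins in order of their change (x axis). Filled grey points have an adjusted p under 0.05, and diamonds mark miR-125a at −1.51, miR-125b at −1.92 and their cluster neighbours miR-99b at −1.105 and miR-99a at 1.82.

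From September to catagen the ratio did not pass the test in either hairpin, with −0.16 for miR-125a and 0.15 for miR-125b (SE 0.27 and 0.26, adjusted p = 0.965 for both), and 0% of hairpins were called. From catagen to telogen it rose by 0.71 for miR-125a (SE 0.22, adjusted p = 0.0136) and by 0.81 for miR-125b (SE 0.21, adjusted p = 0.00491), where 28% of hairpins were called higher. The annual course thus closed with a partial return, and the step from telogen to May carried the ratio on to its maximum. From telogen to September it fell by 0.97 for miR-125b (SE 0.26, adjusted p = 0.00675), where 30.5% were called lower, while miR-125a had −0.56 (SE 0.27, adjusted p = 0.107). That call of miR-125b was lost without the female September library (−0.72, adjusted p = 0.133), and miR-125a was called without the male March library (−0.70, adjusted p = 0.0461). From May to catagen the ratio fell by 1.67 and 1.77 (adjusted p = 0.000121 and 4.79e-05), where 26.8% were called lower.

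The balance between both paralogs, in contrast, varied little. miR-125b-5p had between 0.603 and 0.787 counts for each count of miR-125a-5p over the 12 libraries. The mean ratio was 0.660 ± 0.0866 in telogen (n = 4), 0.647 ± 0.00541 in May (n = 2), 0.658 ± 0.00345 in September (n = 2) and 0.710 ± 0.0524 in catagen (n = 4). The log2 ratio in telogen minus that in catagen was −0.11 (SE 0.10). A two-sided exact permutation test gave p = 0.371 over 70 arrangements, where the smallest possible p is 0.0286. With 1 of these 8 libraries left out the difference lay between −0.20 and −0.07, with p of 0.0571 to 0.629 by that test. The male March library had a ratio of 0.787, and the other telogen libraries 0.603 to 0.645, against 0.652 to 0.776 in catagen. Within months the male minus female difference was 0.05 (SE 0.07) and positive in 3 of 6 months, with an exact sign-flip p of 0.656, the smallest possible being 0.0313. Both 5p arms rose into May and fell from it by like amounts. Between the 3p arms, miR-125b-3p had 22.0 to 37.6 counts for each count of miR-125a-3p, a wider range that goes with the few counts of the latter.

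Between adjacent months the same steps appeared with less certainty, since each month has 2 libraries. In the fit with 6 months both 3p arms were called higher from May to September, 1 of the 3 members counted, where 9.33% of tested miRNAs were called higher, and no member in the other 5 transitions. Of those 2 calls 1 was left with sex as a block, 0 without the male May or the female September library, and 1 when any other library was left out. From December to February 1.33% of all tested miRNAs were called. From March to May miR-125a-5p had a log2 difference of 0.65 and miR-125b-5p of 0.55 (adjusted p = 0.166 for both, and 0.0158 and 0.0313 with DESeq2), and these passed without the male March library (0.74, adjusted p = 0.0256, and 0.83, adjusted p = 0.0158). From December to February miR-125a-3p had −0.97 (adjusted p = 0.121) and miR-125b-3p −0.94 (adjusted p = 0.0942), the latter passing without the female March library (adjusted p = 0.0382) or the male March library (0.0357). By edgeR 0% of all tested miRNAs were called from February to March, March to May, September to November and November to December, while 15, 52, 13 and 10 had an unadjusted p under 0.05.

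Female and male libraries did not differ beyond their spread for any member. With month as a term, the male minus female log2 differences lay between −0.09 and 0.06 (SE 0.09 to 0.21). Of the members 0 were called, as were 0% of all tested miRNAs by edgeR, of which 34 had an unadjusted p under 0.05. No member passed for its sex difference in telogen minus that in catagen, a contrast in which 1.33% of tested miRNAs were called. The values were 0.13 to 0.69 (SE 0.23 to 0.45, edgeR adjusted p of 0.310 to 0.812), which leaves room for differences of that size. Each month has 1 library per sex, so a difference between the sexes of 1 month and a difference between 2 libraries cannot be told apart.

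In TPM, the let-7 5p neighbours also had their highest monthly mean in May, but among all neighbours no rise from telogen to May passed the test, and miR-99a-5p was lower. In the RefSeq annotation of goat assembly ARS1.2, the gene of miR-125b lies next to that of let-7c, followed by that of miR-99a, and the gene of miR-99b lies next to that of let-7e. The genes named for miR-100 and let-7a lie on another chromosome than that of miR-125b. A gene named for miR-125a was not in that annotation. In other mammals miR-125b has a second gene near miR-100 and let-7a, and miR-125a lies beside miR-99b and let-7e. All of these are called neighbours here, whether known from goats or from other mammals. A mature miRNA made from several genes is counted here as 1.

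All 11 listed arms of these neighbours were tested. From telogen to May 0 were called, where 2.33% of tested miRNAs were called in either direction. Only miR-99a-5p passed the adjusted p there, with −0.76 (adjusted p = 0.0307). From May to September 1 was called higher and 1 lower, where 9.67% of tested miRNAs were called higher and 8.67% lower. miR-99b-3p rose by 1.60 (SE 0.38, adjusted p = 0.00749) and miR-99a-3p fell by 1.101 (SE 0.21, adjusted p = 0.00241), while miR-100-5p rose by 0.88 (adjusted p = 0.0024) and miR-99a-5p by 0.72 (adjusted p = 0.0116) without reaching 2-fold. These 5p arms thus went in the direction opposite to miR-125b-5p, whereas let-7c-5p (0.09), let-7a-5p (−0.03), let-7e-5p (0.28) and miR-99b-5p (0.46) did not pass. The TPM of miR-99a-5p was 34006 ± 4772 for telogen, 23254 ± 405 for May, 26618 ± 712 for September and 24465 ± 2158 for catagen, many times the level of miR-125b-5p.

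Within a library, the count of miR-125a-5p was 0.853 ± 0.0353 times that of miR-99b-5p in May, 0.572 ± 0.0837 in telogen, 0.429 ± 0.0462 in September and 0.369 ± 0.0340 in catagen. Against let-7e-5p it was 1.101 ± 0.0303 in May and 0.549 ± 0.0698 in catagen. The count of miR-125b-5p was 0.290 ± 0.0375 times that of miR-100-5p in May and 0.111 ± 0.0128 in September, and 0.172 ± 0.0114 times that of let-7c-5p in May and 0.113 ± 0.00132 in September. Both May libraries were the highest of the 12 for these pairs, except that against let-7e-5p the female March library, at 1.097, lay between both May libraries. No test was run on these ratios, which are descriptions.

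**Figure D5:**
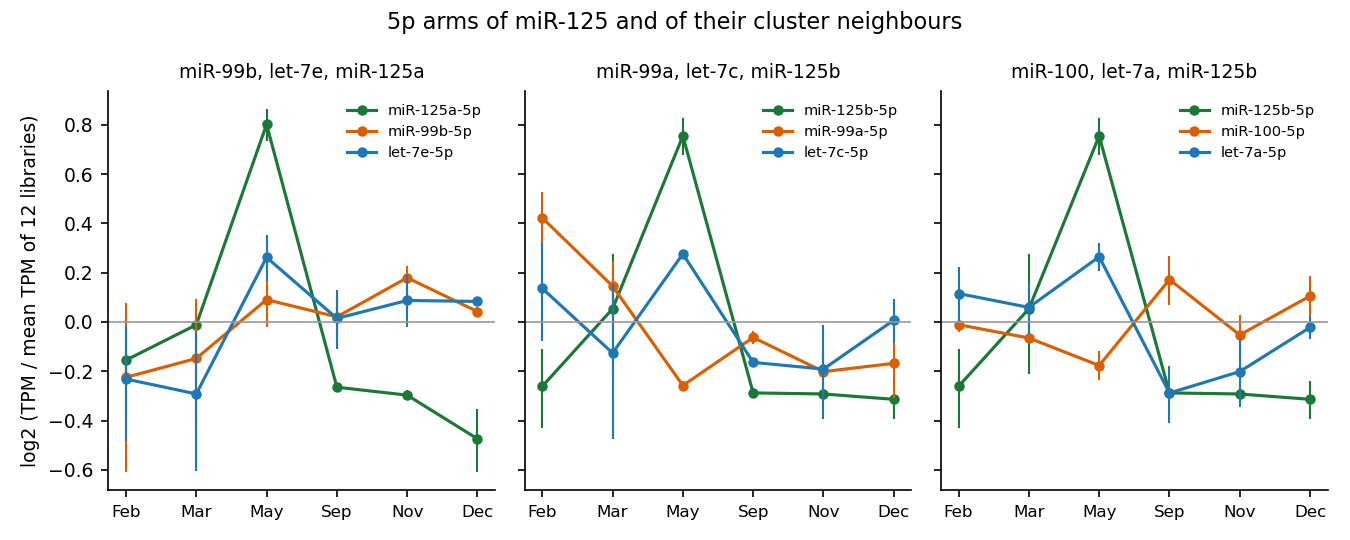
Level of miR-125a-5p, miR-125b-5p and the 5p arms of their cluster neighbours, as known from goats or from other mammals. The y axis gives log2 of the mean TPM of a month over the mean TPM of the 12 libraries. The x axis gives the month, and vertical lines run from the lower to the higher library. miR-125a-5p and miR-125b-5p peak in May, where miR-99a-5p and miR-100-5p lie below 0 and the let-7 arms rise less.

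The arm ratios of the neighbours did not move as a group either. That of miR-99b fell by 1.105 from May to September (SE 0.32, adjusted p = 0.00759), in the direction of both miR-125 hairpins. That of miR-99a rose by 1.82 (SE 0.34, adjusted p = 0.000346), in the opposite direction, with a TPM of its 3p arm of 148 ± 15.0 for May and 47.7 ± 3.83 for September. let-7a, let-7c and let-7e were not called, with 0.24, −1.07 and −0.22 (adjusted p = 0.575, 0.0603 and 0.62).

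By the Pearson correlation of log2 TMM-scaled CPM over the 12 libraries, the tested miRNAs most like miR-125b-3p were miR-335-3p (0.966), miR-99b-3p (0.966) and miR-27a-5p (0.947). Those most like miR-125a-3p were miR-27b-3p (0.926), the predicted miRNA novel_98 (0.925) and miR-103-3p (0.913). For miR-125a-5p they were miR-130b-3p (0.839), miR-10a-3p (0.792) and novel_157 (0.758), and for miR-125b-5p miR-423-3p (0.818), miR-660 (0.805) and miR-130b-3p (0.791). The points share library, depth and phase. The 3p likenesses stood without the May libraries (0.887 to 0.955 over 10 libraries). That of miR-130b-3p to the 5p arms rested on May, at 0.181 and 0.0318 without it. So did that of novel_157 to miR-125a-5p, at 0.295. Without May miR-10a-3p had 0.682 with miR-125a-5p, and miR-423-3p and miR-660 had 0.860 and 0.826 with miR-125b-5p.

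Among the members themselves, both 5p arms had a correlation of 0.897 and both 3p arms one of 0.932. The arms of 1 hairpin did not run together, with −0.387 for miR-125a and −0.129 for miR-125b over the 12 libraries. Over the 10 libraries outside May these were 0.329 for miR-125a and 0.782 for miR-125b. There both 5p arms had a correlation of 0.544 and both 3p arms one of 0.903, while miR-125b-5p had 0.824 with miR-125a-3p. The contrast between 5p pairs and hairpin arms thus rested on the May libraries.

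Markers of other cells were set beside these changes. From telogen to May 2 of 4 leukocyte miRNAs were called lower, where 2% of tested miRNAs were. Of 2 erythrocyte, 5 muscle, 2 endothelial, 6 epidermal and 9 mesenchymal arms 0 were called. From May to September 1 of 4 leukocyte, 1 of 5 muscle, 1 of 6 epidermal and 1 of 9 mesenchymal arms were called higher. The erythrocyte and endothelial lists had 0 such calls, and 9.67% of tested miRNAs were called higher. From telogen to September 1 of 6 epidermal arms was called lower, where 4.67% of tested miRNAs were. From May to catagen 1 of 5 muscle and 1 of 9 mesenchymal arms were called higher, where 9% of tested miRNAs were. The summed leukocyte TPM was 416.3 to 433.8 in May, 442.0 to 664.3 in telogen and 415.3 to 588.4 in September, and the muscle sum was 2113 to 2745 in May and 3389 to 3461 in September. Their part in the changes of the miR-125 arms was not tested.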

How the data were processed

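The authors prepared small RNA libraries of SHFs with a NEBNext kit and sequenced them on an Illumina HiSeq. Trimmed reads were aligned to CHIR_2.0, miREvo and mirDeep2 served to find miRNAs, and Bowtie 0.12.9 to quantify them. The authors deposited a raw count and a TPM of each of 376 miRNAs. The deposited TPM differs from the count rescaled by its library total by at most 0.005. How reads that match several miRNAs or genes were assigned is not given in the sources used here.

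Counts were tested in R 4.3.3 with edgeR 4.0.16 (glmQLFit and glmQLFTest, TMM) for miRNAs over 5 CPM in at least 2 libraries, in 1 fit of 12 libraries with 4 phases, 1 with 6 months, and 1 with sex and month. A call needs an adjusted p under 0.05 and 2-fold. Arm ratios were tested with limma 3.58.1 with 1 added to each count. Standard errors of edgeR changes are the log2 change divided by the root of the F statistic. Those of arm ratios come from the moderated variance of limma, and those of the paralog ratio from the spread between libraries or month pairs. Correlations used CPM with a prior count of 1. The paralog ratio was tested by exact permutation in scipy 1.17.1.

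The members and the lists of neighbours and cell type markers were chosen with earlier results of these data known. The text names the members, their cluster neighbours and the 3 miRNAs most like each member. A part of the rule on shared seeds was not applied, since mature sequences were not used here. Alternatives were RLE and library totals, DESeq2 1.42.0, other filters, pseudocounts, fold minimums and groups in the fit, sex as a block, and leaving out each library. In simulated counts for May to September, 95 of 100 4-fold and 66 of 100 2-fold changes passed the adjusted p without a fold minimum. So did 9 of 95 unchanged miRNAs, which is thus not the rate of false calls at 2-fold. For arm ratios 28 of 30 changed 4-fold passed, and 0 of 52 unchanged. Counts of both libraries of a month differed by 65.2 to 635 times the degrees of freedom (chi-square), more than counting noise alone gives. RefSeq genes of another assembly served for gene order only.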

Additional observations from a re-analysis of the deposited data

Results flagged for a closer look

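The male March library had a TPM of 7.26 for miR-125a-3p, apart from the other telogen libraries at 3.97, 4.51 and 4.12. Its gap to the nearest library, divided by the range of the group, was 0.836, above Dixon's 95% limit for 4 samples. It was the only one of 14 such groups to exceed the limit, which chance exceeds in about 5% of groups. The value rests on 30 counts, with a 95% Wilson interval of 5.08 to 10.4.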

How the results depend on the processing

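The fall of the miR-125b arm ratio from May to September and to catagen, and its rise from catagen to telogen, kept direction under all alternatives. Its calls stood under those that kept all libraries of the groups compared, with 1 exception given below. The miR-125a ratio kept these directions under all alternatives that gave a value. With a 2-fold minimum the rise from catagen to telogen was not called (0.71 for miR-125a and 0.81 for miR-125b). That minimum also ended the calls from telogen to May (0.95 and 0.96) and of miR-125b from telogen to September (−0.97). The filters of 50 CPM and of 50 counts removed miR-125a-3p. Its hairpin entered the arm ratio test through the groups where this arm was high, so calls of the miR-125a ratio are values only. Counts of members called in this section include miR-125a-3p. With no minimum fold, 2 members were called from telogen to May and 4 from May to September in both fits. From catagen to telogen 2 were called and from May to catagen 4. By the same rule 5.33%, 34% (30.7% in the fit of 6 months), 35% and 37% of tested miRNAs were called. Over the 3 members counted, these steps gave 2 higher, then 1 higher and 2 lower, then 1 lower, then 1 higher and 2 lower. From May to September 1 member was called with RLE, DESeq2, no filter, 50 CPM or only the groups compared, and likewise in the fit of 6 months with RLE, DESeq2, no filter or 50 CPM. From May to catagen 1 was called with no filter, 50 CPM or only the groups compared, and with library totals 2, the 5p arms in place of the 3p arms. With library totals 0 were called from telogen to September.

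The labels give no replicate numbers, so pairing by number was not possible. With sex as a block in place of pairs, 1 member instead of 2 was called from May to September in the fit of 6 months, and no other call changed.

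Signs turned only where no test passed. From September to catagen miR-125b-5p had −0.015 with library totals, −0.025 with no filter and −0.034 with 50 CPM. From catagen to telogen miR-125a-5p had 0.023 with RLE, 0.024 with DESeq2, 0.043 with 50 CPM and 0.30 with library totals, and miR-125b-5p 0.21 with library totals. With library totals, both had −0.18 and −0.19 from telogen to September, and miR-125b-5p 0.053 from December to February. Between the sexes, miR-125a-5p had 0.034 with library totals, 0.038 with no filter and 0.033 with 50 CPM, miR-125b-5p 0.083, 0.088 and 0.083 in the same order and 0.016 with RLE and with DESeq2, and miR-125a-3p 0.0057 with no filter.

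Leaving out each library gave 1 to 2 members called from May to September (0 to 2 in the fit of 6 months), 0 to 1 from catagen to telogen, 0 to 1 from telogen to September and 1 to 2 from May to catagen. Arm ratios ranged from 0.80 to 1.03 for miR-125a and 0.88 to 1.07 for miR-125b from telogen to May, −0.70 to −0.48 and −1.21 to −0.72 from telogen to September, and −0.092 to 0.40 for miR-125b from September to catagen. Levels ranged from September to catagen from −0.052 to 0.19 for miR-125a-3p, −0.13 to 0.031 for miR-125a-5p, −0.41 to 0.15 for miR-125b-3p and −0.014 to 0.093 for miR-125b-5p, from March to May from −0.60 to 0.0022 for miR-125a-3p and −0.63 to 0.23 for miR-125b-3p, and from December to February from −0.064 to 0.19 for miR-125a-5p. Male minus female values ranged from −0.19 to 0.0083 for miR-125a-3p, −0.12 to 0.067 for miR-125a-5p, −0.053 to 0.23 for miR-125b-3p and −0.043 to 0.13 for miR-125b-5p, and the log2 ratio of the paralogs from −0.017 to 0.078. The cause of these shifts was not tested.

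Of the 3 miRNAs most like each member, Spearman correlation shared 0 for miR-125a-3p, 1 for each 5p arm and 2 for miR-125b-3p, and library totals shared 2, 2, 1 and 3 for miR-125a-3p, miR-125a-5p, miR-125b-5p and miR-125b-3p. Depth limits miR-125a-3p, and 2 libraries each limit May and September.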
